A study of Mus musculus with 19 samples.

Results

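A set of 40 genes of the cell cycle and of DNA replication was examined by symbol among the 24421 genes counted in total RNA-seq libraries of mouse mammary tissue. It held 1 cyclin of the G1 phase (Ccnd1), 17 genes of the G1/S switch and of S phase, and 22 genes of mitosis. All 40 had reads in every library, with counts per gene and library from 12 to 6626, and all passed the filter of at least 10 reads in total that was set on all genes.

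Cells commit to division when D cyclins free E2F transcription factors from the retinoblastoma protein, and E2F then switches on the genes that load and fire replication origins and that supply deoxynucleotides. Genes of mitosis are switched on later, in G2, when repression through the DREAM complex has been lifted and MYB and FOXM1 act on their promoters. In the mammary gland of the mouse, epithelial division is strong in the first part of pregnancy, while ducts branch and alveoli are laid down, and secretory differentiation dominates towards birth.

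The mice had the C57BL/6 background, and whole mammary gland tissue was taken at day 6 (p6) and day 18 (p18) of pregnancy. Wild type (WT) tissue gave 3 libraries at each day. Tissue with a germline deletion of the enhancer cluster next to Odam in the casein locus, labelled Enhancer-delS1-4 and here called ΔSE, gave 4 libraries at each day. Mice without the proximal enhancer of Csn3 (ΔCsn3PE) gave 2 libraries at p18 and mice without an enhancer of Csn1s2b (ΔCsn1s2bE) gave 3, and which Csn1s2b enhancer was removed is not stated. The extraction notes of these 5 libraries speak of WT tissue in lactation, so that the label p18 may not give their true stage, and they came without WT libraries of their own. The deletions were made with CRISPR/Cas9 in the mice themselves, and because whole tissue was used, fewer dividing cells and less RNA per dividing cell cannot be told apart. The comparisons made here ask how the genes of division differed with stage, with genotype and between libraries.

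Reads in genes came to 12335272 to 20525175 per library in WT and ΔSE tissue and to 26848053 to 30329601 in the single-enhancer lines. Between 21.7 and 42.9% of these reads fell on Rn45s, the precursor of ribosomal RNA, in the first set, against 0.0765 to 0.924% in the second. Levels are given as normalized CPM, that is, read counts per gene scaled to a common library size with TMM factors over all 19 libraries. Of the genes next to the deletions, Csn3 ranged from 276 to 1358 normalized CPM in ΔCsn3PE tissue and from 50.1 to 146 in ΔSE tissue at p18, against 5168 to 6707 in WT tissue at p18. Csn1s2b ranged from 2.62 to 15.7 normalized CPM in ΔSE tissue at p18, below the 42.7 to 217 of WT tissue, whereas the 27.8 to 51.5 of ΔCsn1s2bE tissue overlapped with WT. Markers of luminal epithelium, of myoepithelium and of fat had reads in every library, and the 4 globin genes of the erythroid list were at 0 in every library.

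Replicates of the same group differed in proliferation genes, most of all at p6. The geometric mean over the 17 S phase genes was 12.3, 15.2 and 19.7 normalized CPM in WT replicates 1, 2 and 3 at p6, and over the 22 mitosis genes it was 9.22, 16.4 and 22. WT replicate 1 at p6 had the lowest value for 21 of 22 mitosis genes and 13 of 17 S phase genes, and replicate 3 had the highest for 21 and 14. In this group the highest library was a median of 2.73 times the lowest over mitosis genes and 1.84 times over S phase genes, up to 4.99 times for Ube2c. In ΔSE tissue at p6 the geometric means were 19.5, 12.9, 15.2 and 11.6 over S phase genes and 22.6, 18.2, 21.8 and 12 over mitosis genes. Replicate 4 had the lowest value there for all 22 mitosis genes and 13 of 17 S phase genes.

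At p18 the S phase means were 9.39, 11.5 and 14 in WT tissue and 12.1, 12.2, 13.4 and 13.1 in ΔSE tissue. The mitosis means were 15.9, 15.3 and 22.8 in WT tissue, where replicate 3 was highest for all 22 genes, and 19.5, 21.1, 25.1 and 27.6 in ΔSE tissue. The libraries low in mitosis genes also stood apart in some markers of cell types, though not in the same ones. Fibroblast markers (4 genes) summed to 818 normalized CPM in WT replicate 1 at p6 against 7524 and 3012 in replicates 2 and 3. Luminal markers (9 genes) summed to 528 in ΔSE replicate 4 at p6 against 780 to 1026 in the other 3 libraries, and fat markers (7 genes) to 4524 against 2366 to 2918. The fat sum of WT replicate 1 at p6, 1958, lay between the 2671 and 1791 of replicates 2 and 3. The fibroblast sum of ΔSE replicate 4 at p6, 7948, lay close to the 8042 of replicate 1. The part of these differences in the results below was not tested, and counts without each library are given where they differ.

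**Figure D1:**
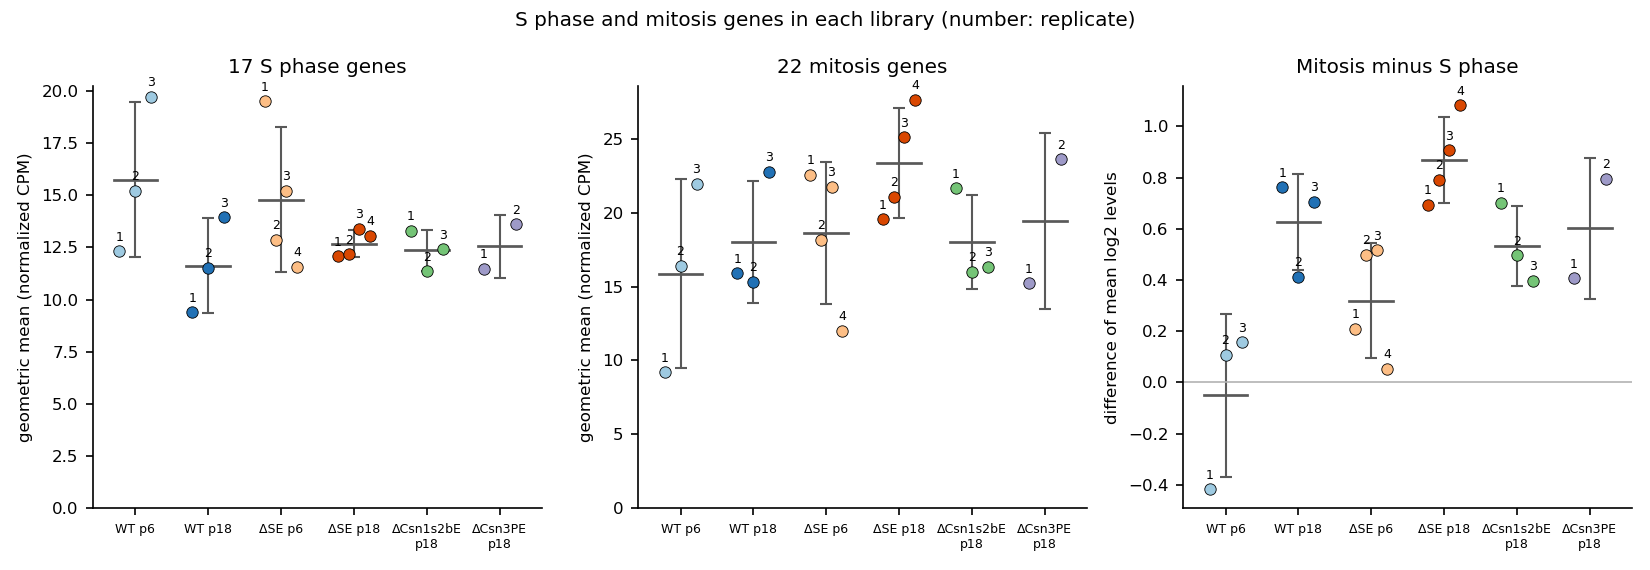
Geometric mean level of the 17 S phase genes (left) and the 22 mitosis genes (middle) in normalized CPM, and the difference between the mean log2 levels of the classes (right), for each of the 19 libraries. Points are libraries with their replicate number, horizontal lines are group means and bars are the standard deviation. S phase means at p6 span 11.6 to 19.7, whereas the difference between classes is at most 0.52 at p6 and at least 0.41 at p18 in WT and ΔSE tissue, without overlap within either genotype.

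The mean log2 level of mitosis genes minus that of S phase genes, both taken within the same library, was -0.42, 0.11 and 0.16 in WT tissue at p6 and 0.76, 0.41 and 0.71 at p18. In ΔSE tissue it was 0.21, 0.50, 0.52 and 0.05 at p6 and 0.69, 0.79, 0.91 and 1.08 at p18. In both genotypes the p18 libraries lay above those of p6 without overlap, so that mitosis genes stood higher relative to S phase genes at p18. These differences are a description of members that were chosen with results known, and no test was made of them. In the single-enhancer lines the difference was 0.70, 0.50 and 0.40 (ΔCsn1s2bE) and 0.41 and 0.80 (ΔCsn3PE), where 2 libraries lay just below the range of WT tissue at p18 and 1 above it.

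In WT tissue, 4 of the 40 genes fell from p6 to p18 and none rose. The 4 were the minichromosome maintenance genes Mcm7 and Mcm3, which encode subunits of the replicative helicase, Cdc6, which loads that helicase onto origins, and Ccnd1, the D cyclin on which alveolar growth in the mammary gland depends. Across all 17844 genes tested with edgeR's quasi-likelihood test, 12.4% were lower and 17.2% higher at p18, so that the number of members that fell is no larger a share than among all genes. By class, 3 of 17 S phase genes fell and 14 had a negative log2 fold change, with a median of -0.50. None of the 22 mitosis genes was called, 16 had a positive log2 fold change and the median was 0.23, beside -0.05 over all genes. For mitosis genes 2 had an unadjusted p under 0.05, and DESeq2 called none. Over all 40 genes 10 had an unadjusted p under 0.05, and DESeq2 called 0 higher and 6 lower (16.9% and 15.9% of all genes). With 1 factor of unwanted variation in the model none of the 4 calls was left. That factor left 0.0392% of all genes higher and 0.0168% lower, so this loss is not particular to the members. With luminal markers as a covariate, which themselves follow the days, 10 members were called lower (7.27% of all genes).

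Mcm7 was at 59.2, 45.0 and 58.1 normalized CPM in WT tissue at p6 and at 21.0, 21.8 and 35.0 at p18. All 3 libraries at p18 were below all 3 at p6, and the log2 fold change was -1.03 (standard error, SE, 0.21, adjusted p = 0.00161 by edgeR's quasi-likelihood test). The host gene Mcm7 also holds the microRNA genes Mir25, Mir93 and Mir106b, and Cops6 and Ap4m1 overlap it on the other strand. Cdc6 was at 6.24, 7.81 and 7.49 at p6 and at 2.27, 3.90 and 4.52 at p18, again without overlap (log2 fold change -0.98, SE 0.27, adjusted p = 0.0108). Mcm3 went from 18.9, 29.9 and 34.7 at p6 to 11.4, 14.2 and 18.2 at p18 (log2 fold change -0.91, SE 0.26, adjusted p = 0.0144).

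Ccnd1 was at 186, 205 and 190 normalized CPM at p6 and at 64.1, 142 and 149 at p18 in WT tissue. Replicate 1 at p18 was far below the other 2. With all libraries the log2 fold change was -0.69 (SE 0.24, adjusted p = 0.0399 by edgeR's quasi-likelihood test), and without that library it was -0.40 (adjusted p = 0.119). Leaving out any other library but WT replicates 2 and 3 at p18 also took the adjusted p of Ccnd1 past 0.05. The calls of Mcm7 and Cdc6 held without any 1 library, and that of Mcm3 was lost without 3 of the 6 in turn, its highest adjusted p being 0.0613. The number of members called was 2 without WT replicate 1 at p18 and 6 without WT replicate 1 at p6 or replicate 3 at p18, all lower. Of all genes, 11.4%, 10.8% and 8.99% were lower in these fits. Without WT replicate 3 at p6, 3 mitosis genes were called higher (Ccnb1, Cdc20 and Ube2c) beside 2 lower (Cdc6 and Mcm7). In that fit 15.9% of all genes were higher and 13% lower.

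The other subunits of the helicase and E2f1 lay on the same side. Mcm5 was at 25.4, 31.0 and 43.1 normalized CPM at p6 and at 12.1, 20.8 and 24.6 at p18 in WT tissue, without overlap (log2 fold change -0.77, SE 0.29, adjusted p = 0.0585). Mcm6 was at 69.6, 71.2 and 93.2 against 39.4, 55.1 and 63.9 (adjusted p = 0.0734), and Mcm2, at 18.8, 26.9 and 37.1 against 14.3, 19.2 and 22.9, overlapped between the days. Mcm4 was at 23.2, 31.3 and 37.5 against 16.0, 22.6 and 25.6 (log2 fold change -0.50, adjusted p = 0.112). E2f1, the transcription factor that drives this class, was at 6.40, 5.07 and 6.78 at p6 and at 3.65, 2.86 and 4.95 at p18, all lower (log2 fold change -0.64, SE 0.29, adjusted p = 0.107). In all, 7 members were lower at p18 without overlap between the days, beside 19% of all genes, and 1 was higher, beside 20.9%.

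Not every gene of S phase followed. Pcna, the sliding clamp of the replication fork, was at 20.6, 34.5 and 41.4 normalized CPM at p6 and at 31.7, 37.1 and 42.9 at p18 in WT tissue. Rrm2, the regulated subunit of ribonucleotide reductase, was at 9.09, 8.27 and 16.8 against 10.8, 9.28 and 16.5. Both overlapped between the days, and both log2 fold changes were positive (0.23, SE 0.24, for Pcna and 0.12, SE 0.31, for Rrm2). Ccne1, the E cyclin that starts S phase with CDK2, was at 1.74, 4.08 and 3.77 against 2.13, 4.74 and 3.09 (log2 fold change 0.06). The origin factors Cdt1, Cdc45 and Gins2, the second E cyclin Ccne2, the large reductase subunit Rrm1 and Tyms, which makes thymidylate, had log2 fold changes from -0.52 to -0.14, and none was called.

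Among mitosis genes the spread at p6 exceeded the difference between the days. Ube2c, the ubiquitin-conjugating enzyme of the anaphase-promoting complex, was at 1.19, 5.48 and 5.92 normalized CPM at p6 and at 6.06, 7.27 and 9.79 at p18 in WT tissue. It had the largest positive log2 fold change of the members, 0.87 (SE 0.37, adjusted p = 0.0933), and was the only member higher in all libraries at p18. Ube2c overlaps the muscle troponin gene Tnnc2 on the other strand, and the skeletal muscle markers (6 genes) summed to 3.37 to 2136 normalized CPM over the 6 WT libraries. Ccnb1, the B cyclin that drives entry into mitosis, was at 3.32, 7.29 and 10.9 at p6 and at 10.1, 10.9 and 16.2 at p18 (log2 fold change 0.79, SE 0.34, adjusted p = 0.0919), and the days overlapped by a small margin. Its kinase Cdk1 was at 7.67, 13.7 and 19.5 against 15.4, 17.6 and 21.5 (log2 fold change 0.43, SE 0.28).

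Mki67, a marker of cells in cycle, was at 136, 159 and 219 normalized CPM at p6 and at 181, 157 and 212 at p18 in WT tissue (log2 fold change 0.12, SE 0.24). Top2a, the topoisomerase that untangles chromosomes, was at 46.9, 86.2 and 108 against 62.2, 63.0 and 95.4 (log2 fold change -0.11, SE 0.29). For both genes the days overlapped almost fully. Birc5, a subunit of the chromosomal passenger complex, was at 7.74, 7.55 and 11.5 against 8.95, 8.31 and 9.84, and its partner kinase Aurkb at 3.95, 6.62 and 12.6 against 6.13, 5.32 and 6.65. Plk1, a kinase of spindle assembly and mitotic exit, was at 2.21, 5.48 and 6.01 against 4.68, 5.19 and 8.14. None of the 3 was called, with log2 fold changes of 0.04 for Birc5, -0.35 for Aurkb and 0.40 for Plk1.

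The other 14 mitosis genes were not called in WT tissue either, and their log2 fold changes ran from -0.31 (Cenpf) to 0.58 (Cdc20). They encode the cyclins Ccna2 and Ccnb2, the spindle pole kinase Aurka, the checkpoint kinases Bub1 and Bub1b, and Cdc20. The rest are the kinesin motors Kif11, Kif20a and Kif23, the kinetochore proteins Cenpe and Cenpf, and the spindle proteins Tpx2, Nusap1 and Prc1. All 14 overlapped between the days.

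**Figure D2:**
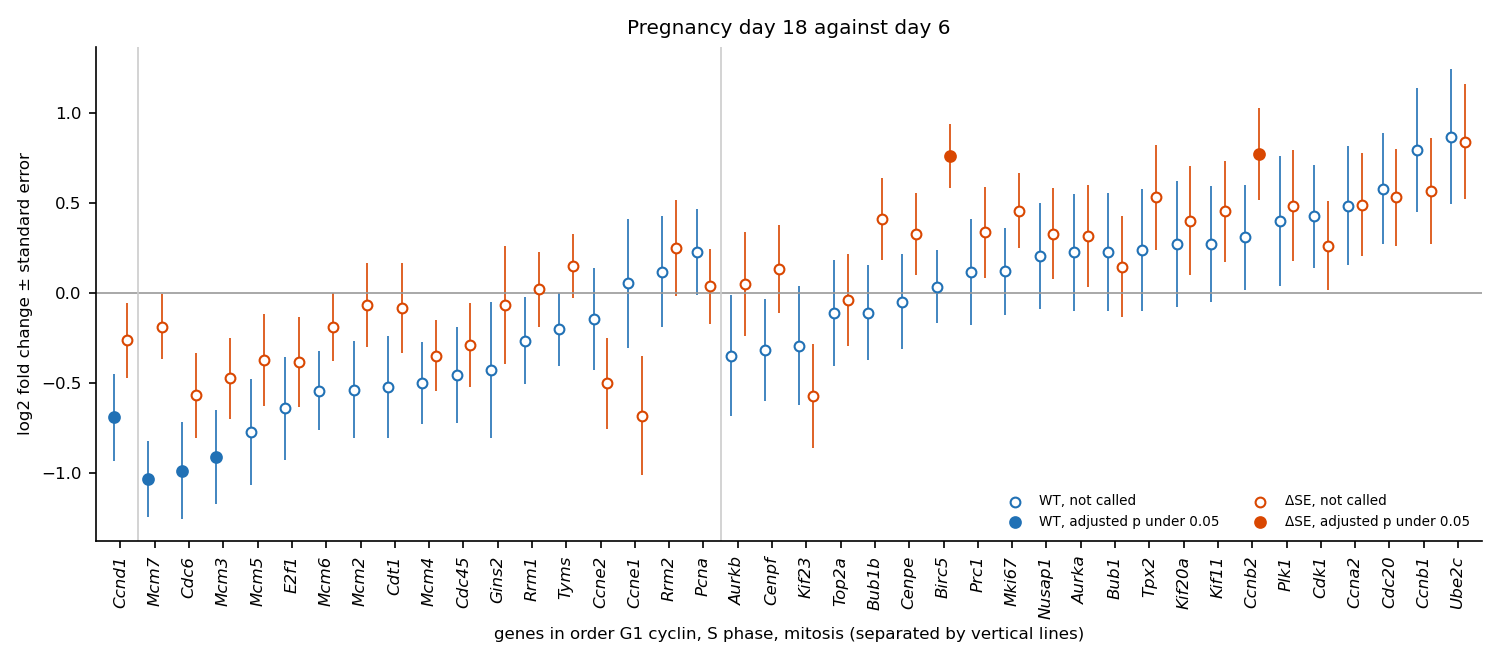
Log2 fold change at p18 against p6 of each of the 40 genes in WT tissue (blue) and ΔSE tissue (orange), with the standard error, in the order of the WT values within each class. Filled points have an adjusted p under 0.05 in edgeR's quasi-likelihood test. Of 17 S phase genes 14 are below 0 in WT tissue, where Mcm7 is lowest at -1.03, and of 22 mitosis genes 20 are above 0 in ΔSE tissue, where Birc5 and Ccnb2 are filled.

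Other genes of the same pathways were counted from lists that did not hold members. Of 28 other replication genes, 13 fell and 2 rose in WT tissue, beside 12.4% and 17.2% of all genes, and the median log2 fold change was -0.64. Among them Pola1, a DNA polymerase that starts the strands, fell by 0.92, Dtl, an adaptor of the ligase that degrades Cdt1, fell by 1.12, Pold1, a polymerase of the lagging strand, fell by 0.98 and Uhrf1, which directs methylation of new DNA, fell by 1.16 on the log2 scale (adjusted p of 0.000476, 0.00159, 0.00217 and 0.00463 in edgeR's quasi-likelihood test). Fen1, which trims the fragments of the lagging strand, rose by 0.94 (adjusted p = 0.00968). Of 44 other mitosis genes 1 fell, Mybl2, at -1.11 (adjusted p = 0.0203), and their median was 0.00.

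Of 7 other regulators of G1, Cdc25a, a phosphatase that activates CDK2, rose by 0.69 and the D cyclin Ccnd2 fell by 1.02 (adjusted p of 0.00201 and 0.00962 in edgeR's quasi-likelihood test). Of 16 brakes of the cycle, Rbl2, a pocket protein of the DREAM complex, rose by 0.66 and Rb1, the retinoblastoma gene, fell by 1.15 (adjusted p of 0.000711 and 0.00458). Cell type markers also moved between the days in WT tissue. All 6 markers of hormone-sensing cells were lower at p18, luminal markers were higher in 2 and lower in 1 of 9, and lymphocyte markers (9 genes) were called in none. All 6 milk markers were higher, by 4.43 to 10.1 on the log2 scale, and their sum went from 127 to 3927 normalized CPM at p6 to 84101 to 112648 at p18. The myoepithelial markers Acta2 and Myh11 were higher. Krt5 of the same list, the fat marker Plin1 and the germinal centre marker Cr2 were lower. The luminal markers summed to 923 to 1177 normalized CPM at p6 and 1546 to 2114 at p18. The part of these cell types in the members' results was not tested.

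Promoters of the members were read from RefSeq annotation of GRCm38.p6, to show what the 2 classes carry in front of their start sites. A window of 250 bases before and 50 after the start was at hand for 32 of the 40 genes, 14 of S phase and 18 of mitosis, and for 27025 genes in all. Sought on both strands were the E2F site (TTTCGCGC, TTTGGCGC, TTTCCCGC or TTCCCGCC, of which the last can overlap the third), the cell cycle homology region or CHR (TTTGAA or TTCGAA), bound by the DREAM complex, and the CCAAT box (CCAAT). An E2F site was in 7 of the 14 S phase genes (50%), in 1 of the 18 mitosis genes (5.56%) and in 4% of all genes. A CHR was in 3 of the 14 S phase genes (21.4%), in 14 of the 18 mitosis genes (77.8%) and in 21.7% of all genes. A CCAAT box was in 9 S phase genes (64.3%), 16 mitosis genes (88.9%) and 41.1% of all genes. A match is a run of letters and does not show that a factor is bound there.

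The 6 stretches shown here belong to the S phase and mitosis genes with the smallest p between the days in WT tissue among those with a window. Capitals mark E2F, CHR and CCAAT letters on either strand, and every stretch lies before the RefSeq start and was kept to at most 30 bases of annotated exon. Those of Mcm7 (chr5:138171267-138171516, minus strand), Mcm3 (chr1:20820313-20820562, minus strand), Cdc20 (chr4:118437344-118437593, minus strand), Cdc6 (chr11:98907952-98908150, plus strand), Ube2c (chr2:164769679-164769927, plus strand) and Ccnb1 (chr13:100786541-100786736, minus strand) hold 250, 250, 250, 199, 249 and 196 bases. For Mcm7 the window of its second annotated start is given, and the window of the first, which lies in an exon, also held E2F and CHR letters.
Mcm7: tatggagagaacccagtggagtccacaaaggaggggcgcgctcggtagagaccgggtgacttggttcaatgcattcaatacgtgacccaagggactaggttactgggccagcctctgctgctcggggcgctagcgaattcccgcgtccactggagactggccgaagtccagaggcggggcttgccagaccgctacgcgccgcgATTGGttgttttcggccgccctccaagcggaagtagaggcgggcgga
Cdc6: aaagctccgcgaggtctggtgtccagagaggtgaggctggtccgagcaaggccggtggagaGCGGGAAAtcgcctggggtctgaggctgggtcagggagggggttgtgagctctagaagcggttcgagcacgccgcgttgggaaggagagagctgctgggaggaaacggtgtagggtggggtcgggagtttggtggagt
Mcm3: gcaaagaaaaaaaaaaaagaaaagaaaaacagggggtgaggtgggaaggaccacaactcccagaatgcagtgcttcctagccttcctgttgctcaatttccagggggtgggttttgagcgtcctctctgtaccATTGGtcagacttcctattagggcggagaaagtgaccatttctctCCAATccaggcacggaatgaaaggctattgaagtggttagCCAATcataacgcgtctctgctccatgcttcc
Ccnb1: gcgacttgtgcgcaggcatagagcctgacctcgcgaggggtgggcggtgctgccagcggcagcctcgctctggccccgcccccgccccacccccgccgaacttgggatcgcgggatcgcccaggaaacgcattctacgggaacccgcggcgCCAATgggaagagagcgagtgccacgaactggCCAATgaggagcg
Ube2c: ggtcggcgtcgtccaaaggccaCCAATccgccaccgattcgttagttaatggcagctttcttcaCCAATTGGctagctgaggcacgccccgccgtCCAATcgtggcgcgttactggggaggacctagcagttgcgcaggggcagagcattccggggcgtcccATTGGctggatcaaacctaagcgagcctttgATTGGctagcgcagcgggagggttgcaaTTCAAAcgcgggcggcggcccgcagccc
Cdc20: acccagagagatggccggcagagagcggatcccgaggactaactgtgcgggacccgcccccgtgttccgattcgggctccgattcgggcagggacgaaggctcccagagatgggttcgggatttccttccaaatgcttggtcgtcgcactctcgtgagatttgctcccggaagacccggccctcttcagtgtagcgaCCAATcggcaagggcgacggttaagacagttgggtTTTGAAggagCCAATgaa

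In the stretch of Cdc6 the capitals are an E2F site on the other strand, 138 to 131 bases before the start. Mcm3 has 3 CCAAT boxes before the start, and its E2F letters lie after it. Mcm7 has 1 CCAAT box here. Ccnb1 has 2 CCAAT boxes and no CHR letters. Ube2c has 6 matches to CCAAT, a pair of which overlap, and CHR letters on the other strand 29 to 24 bases before the start. Cdc20, an activator of the anaphase-promoting complex, has CHR letters 18 to 13 bases before the start between 2 CCAAT boxes.

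In ΔSE tissue, 2 of the 40 genes rose from p6 to p18, both of mitosis, and none fell, beside 17.3% of all genes higher and 18.3% lower. The 2 were Birc5 and Ccnb2, a second B cyclin. The median log2 fold change was 0.41 over mitosis genes, 20 of 22 of which were positive, and -0.19 over S phase genes, 13 of 17 of which were negative, beside -0.07 over all genes. Of S phase genes 1 had an unadjusted p under 0.05, and over all members DESeq2 called 3 higher and 1 lower (17.7% and 19.7% of all genes). With 1 factor of unwanted variation no member and no other gene was called. In 4 members all p18 libraries were above all p6 libraries, beside 18.2% of all genes, and in none were they all below, beside 19.9%.

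Birc5 was at 9.69, 7.18, 8.22 and 5.79 normalized CPM in ΔSE tissue at p6 and at 11.4, 14.7, 12.5 and 13.0 at p18. The days did not overlap, and the log2 fold change was 0.76 (SE 0.18, adjusted p = 0.00343 by edgeR's quasi-likelihood test). Ccnb2 was at 11, 7.33, 8.78 and 6.44 against 12.6, 12.9, 14.4 and 16.4, also without overlap (log2 fold change 0.77, SE 0.25, adjusted p = 0.0261). The call of Birc5 held without any 1 library, whereas that of Ccnb2 was lost without 4 of the 8 in turn, its highest adjusted p being 0.0752. The number of members called was 1 without ΔSE replicate 2 or 4 at p6 or without replicate 3 or 4 at p18, and 3 without ΔSE replicate 1 at p6 or replicate 1 at p18. Over the 8 fits without 1 library, 14.3 to 17.8% of all genes were higher and 14.9 to 16.9% lower.

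The 2 calls were lost when libraries were compared on another scale. With library totals in place of TMM factors, the median over all genes moved to -0.65 in ΔSE tissue, 12 members were called lower and none higher (44.7% and 3.52% of all genes), and the median of the mitosis genes was -0.13. With totals that leave out Rn45s, 10 were called lower and none higher (34.6% and 5.95% of all genes), with medians of 0.055 over mitosis genes and -0.44 over all genes. Birc5 then had a log2 fold change of 0.17 and 0.38 and Ccnb2 of 0.21 and 0.41, above the median of all genes but not called (adjusted p from 0.150 to 0.596). In WT tissue the same 2 scalings moved the median over all genes to -0.42 and -0.46 and gave 10 and 11 members lower and none higher, beside 20.5% and 29.5% of all genes lower.

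Ube2c was at 6.93, 7.07, 7.75 and 4.11 normalized CPM in ΔSE tissue at p6 and at 12.1, 11.5, 11.4 and 10.6 at p18, every library higher (log2 fold change 0.84, SE 0.32, adjusted p = 0.0504). This was the largest log2 fold change of the members, just short of the threshold, and the sum of the muscle markers was 46.9 to 3392 at p6 and 5.16 to 13.1 at p18, a part in the count of Ube2c that was not tested. Mki67 was at 216, 173, 220 and 98.9 against 215, 229, 256 and 258 (log2 fold change 0.46, SE 0.21, adjusted p = 0.101). Ccnb1 was at 12.8, 9.17, 10.8 and 5.69 against 12.4, 11.1, 15.3 and 17.1 (log2 fold change 0.57, SE 0.29). In Mki67 and Ccnb1 the days overlapped through the high libraries at p6. Cdk1 was at 23.0, 13.5, 17.7 and 11.4 against 17.5, 17.8, 17.9 and 24.3, and Top2a at 128, 89.5, 110 and 62.0 against 72.2, 84.1, 94.4 and 124, with log2 fold changes of 0.26 and -0.04. Plk1 was at 7.16, 5.92, 6.25 and 2.82 against 6.19, 7.39, 9.61 and 7.25, and Aurkb at 10.4, 8.17, 11.6 and 5.74 against 7.60, 7.21, 11 and 10.6. None of these 4 was called.

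Among S phase genes in ΔSE tissue the smallest value was that of Ccne1, at 2.20, 3.30, 3.40 and 2.72 normalized CPM at p6 and 1.13, 1.83, 2.32 and 1.81 at p18. It overlapped between the days and was not called (log2 fold change -0.68, SE 0.33, adjusted p = 0.120). Cdc6 was at 7.10, 4.19, 5.53 and 5.35 against 4.78, 3.38, 3.00 and 3.69 (log2 fold change -0.57, SE 0.24, adjusted p = 0.0727). Mcm7, at 57.0, 38.7, 41.5 and 34.4 against 33.9, 32.8, 42.4 and 39.8, overlapped, with a log2 fold change of -0.19 (SE 0.18). Mcm2 was at 36.7, 18.1, 25.3 and 17.4 against 21.9, 24.6, 24.5 and 20.9, and Mcm5 at 43.8, 23.2, 31.5 and 19.1 against 21.4, 17, 25.3 and 25.8. In both, replicate 1 at p6 was highest and the rest overlapped.

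Pcna was at 45.5, 24.9, 28.5 and 32.4 normalized CPM in ΔSE tissue at p6 and at 30.2, 33.3, 29.3 and 40.4 at p18, and Rrm2 at 18.3, 10.9, 11.5 and 7.77 against 13.7, 11.9, 13.7 and 17.5. E2f1 was at 7.44, 4.61, 5.46 and 4.95 against 5.44, 4.20, 4.91 and 2.55. Ccnd1 was at 227, 136, 164 and 142 against 138, 136, 147 and 131, with a log2 fold change of -0.26 (SE 0.21, adjusted p = 0.352). All of these overlapped between the days. The remaining S phase genes of ΔSE tissue (Ccne2, Cdt1, Mcm3, Mcm4, Mcm6, Cdc45, Gins2, Rrm1 and Tyms) had log2 fold changes from -0.50 (Ccne2) to 0.15 (Tyms), and the mitosis genes not given above ran from -0.57 (Kif23) to 0.53 (Tpx2). None of them was called.

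**Figure D3:**
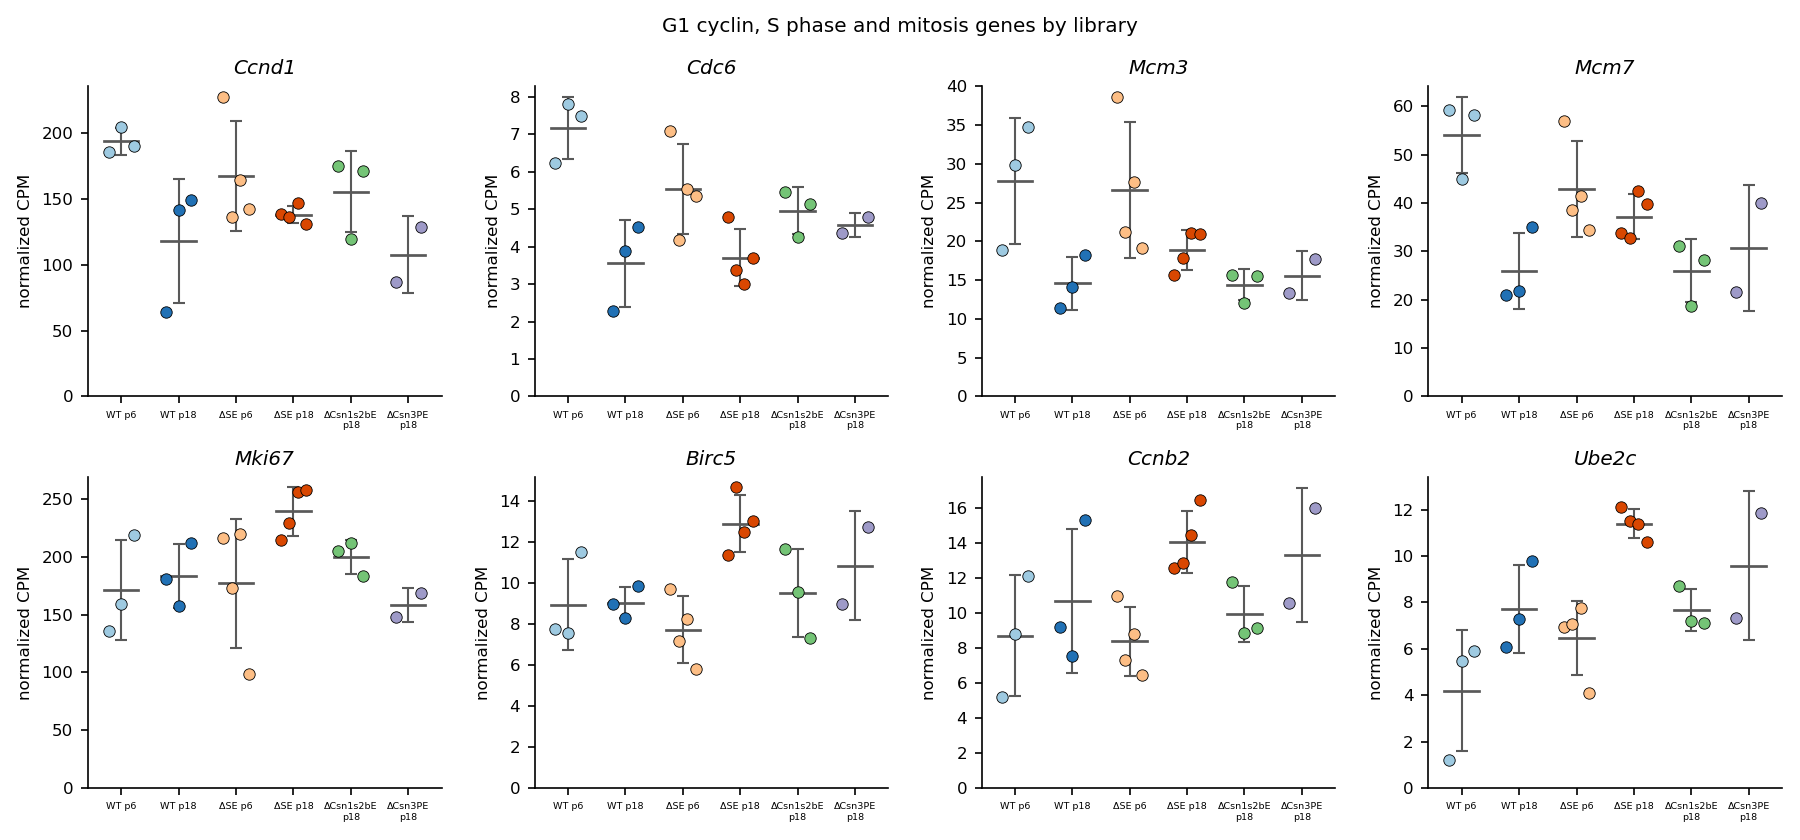
Normalized CPM of Ccnd1, Cdc6, Mcm3, Mcm7, Mki67, Birc5, Ccnb2 and Ube2c in each library of the 6 groups. Points are libraries in the order of their replicate numbers, lines are group means and bars the standard deviation. The p18 libraries of WT tissue lie below those of p6 for Ccnd1, Cdc6, Mcm3 and Mcm7, and the p18 libraries of ΔSE tissue lie above those of p6 for Birc5, Ccnb2 and Ube2c.

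Of the 28 other replication genes, 1 rose (Fen1, log2 fold change 0.68, adjusted p = 0.0242 in edgeR's quasi-likelihood test) and 2 fell (Pola1, -0.54, adjusted p = 0.00599, and Dtl, -0.54, adjusted p = 0.0424) in ΔSE tissue, with a median of -0.20. Of the 44 other mitosis genes 3 rose and 1 fell, and the median was 0.18. Those that rose were the centrosome kinase Nek2 (0.84, adjusted p = 0.0113), Cdca8, a partner of Birc5 (0.88, adjusted p = 0.0210), and Cdca3 (0.71, adjusted p = 0.0428), and Hjurp, the chaperone of the centromere histone, fell (-0.66, adjusted p = 0.0162). Cdc25a rose by 0.73 and Ccnd2 fell by 1.38 (adjusted p of 0.000383 and 0.000341).

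Of the 16 brakes 3 were higher and 3 lower in ΔSE tissue, near the 17.3% and 18.3% of all genes. The antiproliferative gene Btg2 rose by 0.84 and Rbl2 by 0.41, whereas the CDK inhibitor genes Cdkn2c and Cdkn1c fell by 1.31 and 1.94 (adjusted p of 0.000119, 0.00575, 0.00078 and 0.00416 in edgeR's quasi-likelihood test). Cell type markers moved in ΔSE tissue as well. Luminal markers were higher at p18 in 8 and lower in 1 of 9, hormone-sensing markers lower in 6 of 6, fat markers lower in 4 of 7, fibroblast markers lower in 3 of 4 and muscle markers lower in 6 of 6. All 6 milk markers were higher, by 7.99 to 9.93 on the log2 scale. The myoepithelial markers Acta2 and Myh11 were higher and Krt5 and Trp63 lower. The luminal sum was 528 to 1026 normalized CPM at p6 and 1710 to 2001 at p18. With luminal markers as a covariate, which themselves follow the days, 5 members were called lower and none higher (1.78% and 2.17% of all genes). The part of tissue composition in the members' results was not tested beyond that.

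Between ΔSE and WT tissue none of the 40 genes was called at p18, beside 0.101% of all genes higher and 0.213% lower. At an unadjusted p under 0.05 were 5 members, and DESeq2 called none, beside 0.757% of all genes higher and 2.02% lower. The log2 fold changes were positive for 37 of the 40 genes and for all 22 mitosis genes, with medians of 0.40 over mitosis genes, 0.22 over S phase genes and -0.04 over all genes. Members of a class rise and fall together between libraries of 1 group, so these signs are not independent of each other. In 6 members (Mki67, Aurkb, Bub1b, Birc5, Prc1 and Ube2c, all of mitosis) the 4 ΔSE libraries were above the 3 WT libraries, beside 5% of all genes, and in none were they all below, beside 10.1%. Of the cell type markers, 2 of 6 for hormone-sensing cells were higher in ΔSE tissue at p18, Areg (log2 fold change 3.01, adjusted p = 0.0497 by edgeR's quasi-likelihood test) and Tnfsf11 (2.46, adjusted p = 0.0397), and no marker of the other lists was called. The rest of that list was not called, with log2 fold changes of -0.36 for Pgr, -0.36 for Esr1, -0.32 for Prlr and 0.39 for Wnt4. Its sum was 141 to 161 normalized CPM in ΔSE tissue and 154 to 185 in WT tissue, so the list as a whole was not higher. The 6 muscle markers, none called, had log2 fold changes from -8.46 to -5.82, and their sum was 5.16 to 13.1 normalized CPM in ΔSE tissue and 3.37 to 1420 in WT tissue. The part of these cells in the members' values, Ube2c with its overlap with Tnnc2 among them, was not tested.

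The largest difference at p18 was that of Bub1b, a kinase of the spindle checkpoint, at 26.3, 28.2, 36.2 and 39.1 normalized CPM in ΔSE tissue and 16.0, 17.7 and 24.2 in WT tissue. The groups did not overlap, and the log2 fold change was 0.76 (SE 0.25, adjusted p = 0.194 by edgeR's quasi-likelihood test). Birc5 had a log2 fold change of 0.52 (adjusted p = 0.257), Aurkb of 0.60 (adjusted p = 0.458) and Mki67 of 0.39 (adjusted p = 0.503). The smallest was that of Ccne1, at -0.88 (SE 0.35, adjusted p = 0.299), where ΔSE libraries at 1.13 to 2.32 overlapped WT libraries at 2.13 to 4.74. Fitted with the 7 libraries of p18 alone, 3 members were called higher, Bub1b (adjusted p = 0.0126), Prc1 (adjusted p = 0.0380), which bundles the central spindle, and Birc5 (adjusted p = 0.0480), and none lower. In that fit 1.55% of all genes were higher and 3.43% lower, and why its calls differ from those of the 4 groups was not tested.

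At p6 none of the 40 genes was called between ΔSE and WT tissue, beside 0.499% of all genes higher and 0.527% lower. None had an unadjusted p under 0.05 and DESeq2 called none, beside 2.68% of all genes higher and 2.41% lower. The log2 fold changes ran from -0.36 (Cdc6, adjusted p = 0.485) to 0.59 (Ube2c, adjusted p = 0.424), with medians of 0.25 over mitosis genes and -0.10 over S phase genes. Without WT replicate 1 the mitosis median was -0.02, and without WT replicate 3 it was 0.55. Of the 16 brakes, Btg2 was higher in ΔSE tissue at p18 (log2 fold change 0.86, adjusted p = 0.0141) and Rb1 lower at p6 (-1.12, adjusted p = 0.0458), and no gene of the other pathway lists was called at either day. Of the markers at p6, the luminal gene Elf5 was lower in ΔSE tissue (log2 fold change -1.55, adjusted p = 0.0458 by edgeR's quasi-likelihood test). So were the milk genes Csn2, Csn1s1 and Csn1s2a (-4.85 to -4.72, adjusted p from 0.0183 to 0.0242), and no other marker was called. Milk markers (6 genes) summed to 3927, 127 and 3711 normalized CPM in WT replicates 1, 2 and 3 and to 46.5 to 196 in ΔSE tissue. WT replicate 2 thus lay within the range of ΔSE tissue. Fibroblast markers summed to 7948 to 10218 normalized CPM against 818 to 7524 in WT tissue, and macrophage markers to 223 to 300 against 87 to 222. Their part in the members' values was not tested.

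Whether the change from p6 to p18 differed between ΔSE and WT tissue was tested by the interaction of genotype and stage. None of the 40 genes was called, beside 0.0897% of all genes with a higher and 0.0616% with a lower change in ΔSE tissue. At an unadjusted p under 0.05 were 2 members, Mcm7 (log2 interaction 0.85, SE 0.28, adjusted p = 0.155 in edgeR's quasi-likelihood test) and Birc5 (0.72, SE 0.27, adjusted p = 0.203). DESeq2 called no member, beside 1.58% of all genes with a higher and 1.69% with a lower change. The smallest value was that of Ccne1, -0.74 (SE 0.49, adjusted p = 0.470). The fall of Mcm7, Cdc6, Mcm3 and Ccnd1 in WT tissue and the rise of Birc5 and Ccnb2 in ΔSE tissue are thus not shown to differ between the genotypes.

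**Figure D4:**
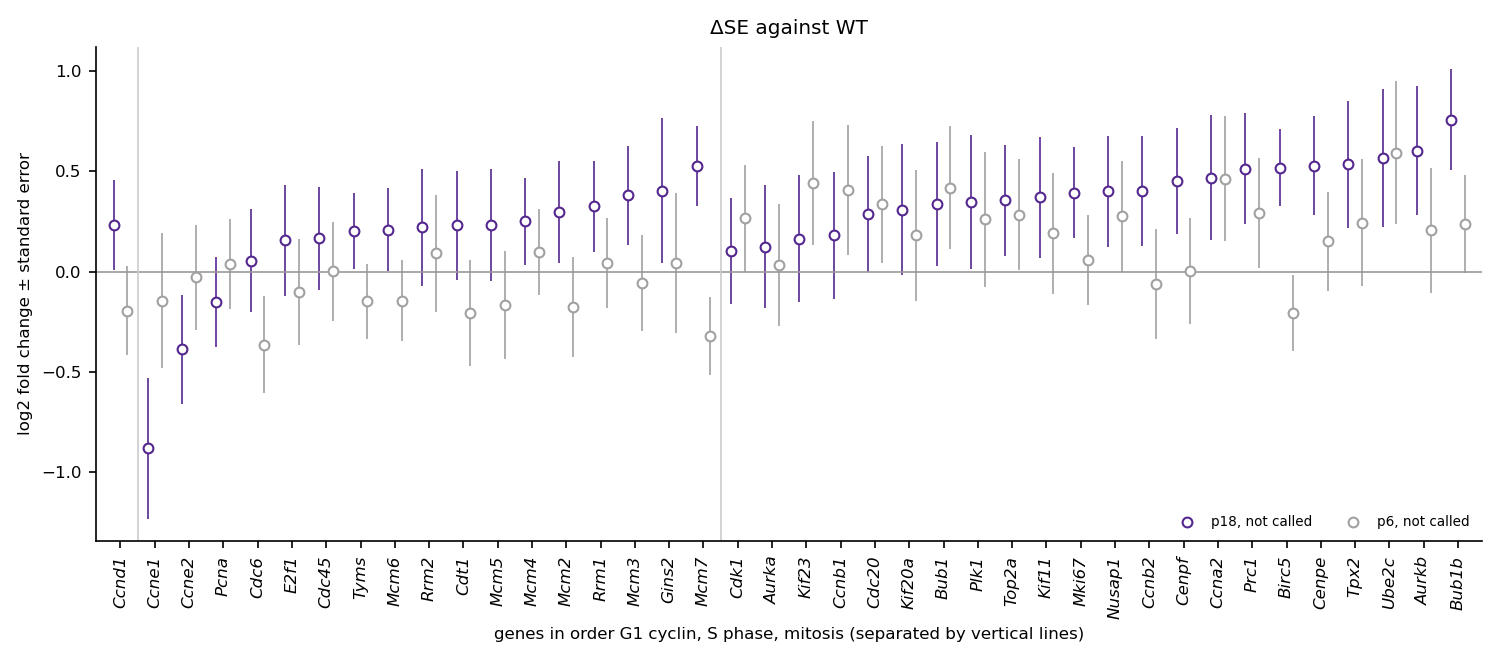
Log2 fold change of ΔSE against WT tissue for each of the 40 genes at p18 (purple) and p6 (grey), with the standard error, in the order of the p18 values within each class. No gene had an adjusted p under 0.05. At p18 all 22 mitosis genes are above 0, from 0.10 (Cdk1) to 0.76 (Bub1b), whereas at p6 the values lie between -0.36 and 0.59.

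The single-enhancer lines were set against WT tissue at p18 in a separate fit of 8 libraries and 17125 genes. These comparisons share the 3 WT libraries, and line and library set cannot be told apart in them. In ΔCsn1s2bE tissue 2 members were higher, Mcm4 and Mcm6, and 2 lower, Plk1 and E2f1, beside 17.2% of all genes higher and 15% lower. In ΔCsn3PE tissue Mcm4 was higher and Plk1 lower, beside 13.8% and 11.5%. These shares are below those of all genes. The medians over S phase genes were -0.06 and 0.14 and those over mitosis genes 0.01 and 0.17 in ΔCsn1s2bE and ΔCsn3PE tissue, near the 0.00 of all genes. Cell type markers moved as well. Fibroblast markers were lower in 2 of 4 in both lines, with log2 fold changes of -2.32 and -2.81 for Col1a1 and -0.91 and -1.23 for Col3a1 (adjusted p from 0.000121 to 0.0124 by edgeR's quasi-likelihood test). Their sum was 2042 to 2807 normalized CPM in ΔCsn1s2bE and 1710 to 2393 in ΔCsn3PE tissue, below the 3912 to 5223 of WT tissue. Luminal markers were higher in 0 and 1 and lower in 3 and 1 of 9, fat markers higher in 3 and 2 and lower in 2 and 1 of 7, and milk genes higher in 3 and 2 of 6, in ΔCsn1s2bE and ΔCsn3PE tissue. The part of these differences in the members' values was not tested.

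Plk1 was at 2.94, 2.93 and 3.25 normalized CPM in ΔCsn1s2bE tissue and at 3.24 and 3.95 in ΔCsn3PE tissue, below the 4.68, 5.19 and 8.14 of WT tissue. The log2 fold changes were -1.05 (SE 0.23, adjusted p = 0.00695 by edgeR's quasi-likelihood test) and -0.80 (SE 0.26, adjusted p = 0.0457). E2f1 was at 2.47, 2.41 and 2.51 in ΔCsn1s2bE and at 2.22 and 2.5 in ΔCsn3PE tissue, against 3.65, 2.86 and 4.95 (log2 fold changes of -0.70, adjusted p = 0.0444, and -0.76, adjusted p = 0.0609). Both genes were lower in every library of the 2 lines than in every WT library. The same held for 19% of all genes in ΔCsn1s2bE and for 21.9% in ΔCsn3PE tissue, each line taken alone. The call of Plk1 in ΔCsn1s2bE tissue held without any 1 library. With luminal markers as a covariate no member was called lower in that line (10.6% of all genes), so the calls of Plk1 and E2f1 were lost.

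Mcm4 was at 36.2, 30.9 and 30.9 normalized CPM in ΔCsn1s2bE tissue and at 31.9 and 35.4 in ΔCsn3PE tissue, above the 16.0, 22.6 and 25.6 of WT tissue (log2 fold changes of 0.55, adjusted p = 0.0294, and 0.60, adjusted p = 0.0375, in edgeR's quasi-likelihood test). Mcm6 was at 78.7, 77.5 and 74.9 in ΔCsn1s2bE and at 72.3 and 85.1 in ΔCsn3PE tissue, against 39.4, 55.1 and 63.9 (0.48, adjusted p = 0.0423, and 0.52, adjusted p = 0.0554). Neither gene overlapped with WT tissue, beside 27.9% of all genes higher without overlap in ΔCsn1s2bE and 30.3% in ΔCsn3PE tissue. Mcm2 did, at 16.7, 16.1 and 19.7 and at 16.9 and 19.1 in the 2 lines against 14.3, 19.2 and 22.9, and the difference between these subunits was not tested. In ΔCsn1s2bE tissue the 3 calls other than Plk1 were each lost without 5 of the 6 libraries in turn, and 1 member was left without WT replicate 1 or without ΔCsn1s2bE replicate 1, 2 or 3, and 2 without WT replicate 2. Over the 6 fits without 1 library, 11.3 to 15.1% of all genes were higher and 10.8 to 13.6% lower. In ΔCsn3PE tissue 1 member was called lower and none higher without WT replicate 1 or 2 (9.99% and 9.05% of all genes lower). Without WT replicate 3, 2 members were called higher and none lower (8.56% and 9.02% of all genes), so the call of Plk1 was lost. Leaving out either ΔCsn3PE library keeps a lone library in that group, and calls of those fits are not counted.

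With library totals in place of TMM factors, where the median over all genes was 0.40 and 0.42, the split turned to 5 members higher and 0 lower in ΔCsn1s2bE and 4 and 0 in ΔCsn3PE tissue, beside 31.8% and 29.8% of all genes higher. With totals that leave out Rn45s it was 0 and 1 (6.53% and 13.7% of all genes), and 0 and 0 (3.56% and 8.71%). Plk1 and E2f1 kept a negative and Mcm4 and Mcm6 a positive log2 fold change on each of these scales. Of the other members, Pcna was at 47.7, 45.3 and 40.9 normalized CPM in ΔCsn1s2bE and at 51.1 and 45.4 in ΔCsn3PE tissue, Mki67 at 205, 212 and 183 and at 148 and 169, and Ccnd1 at 175, 120 and 171 and at 86.8 and 128. None of them was called.

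**Figure D5:**
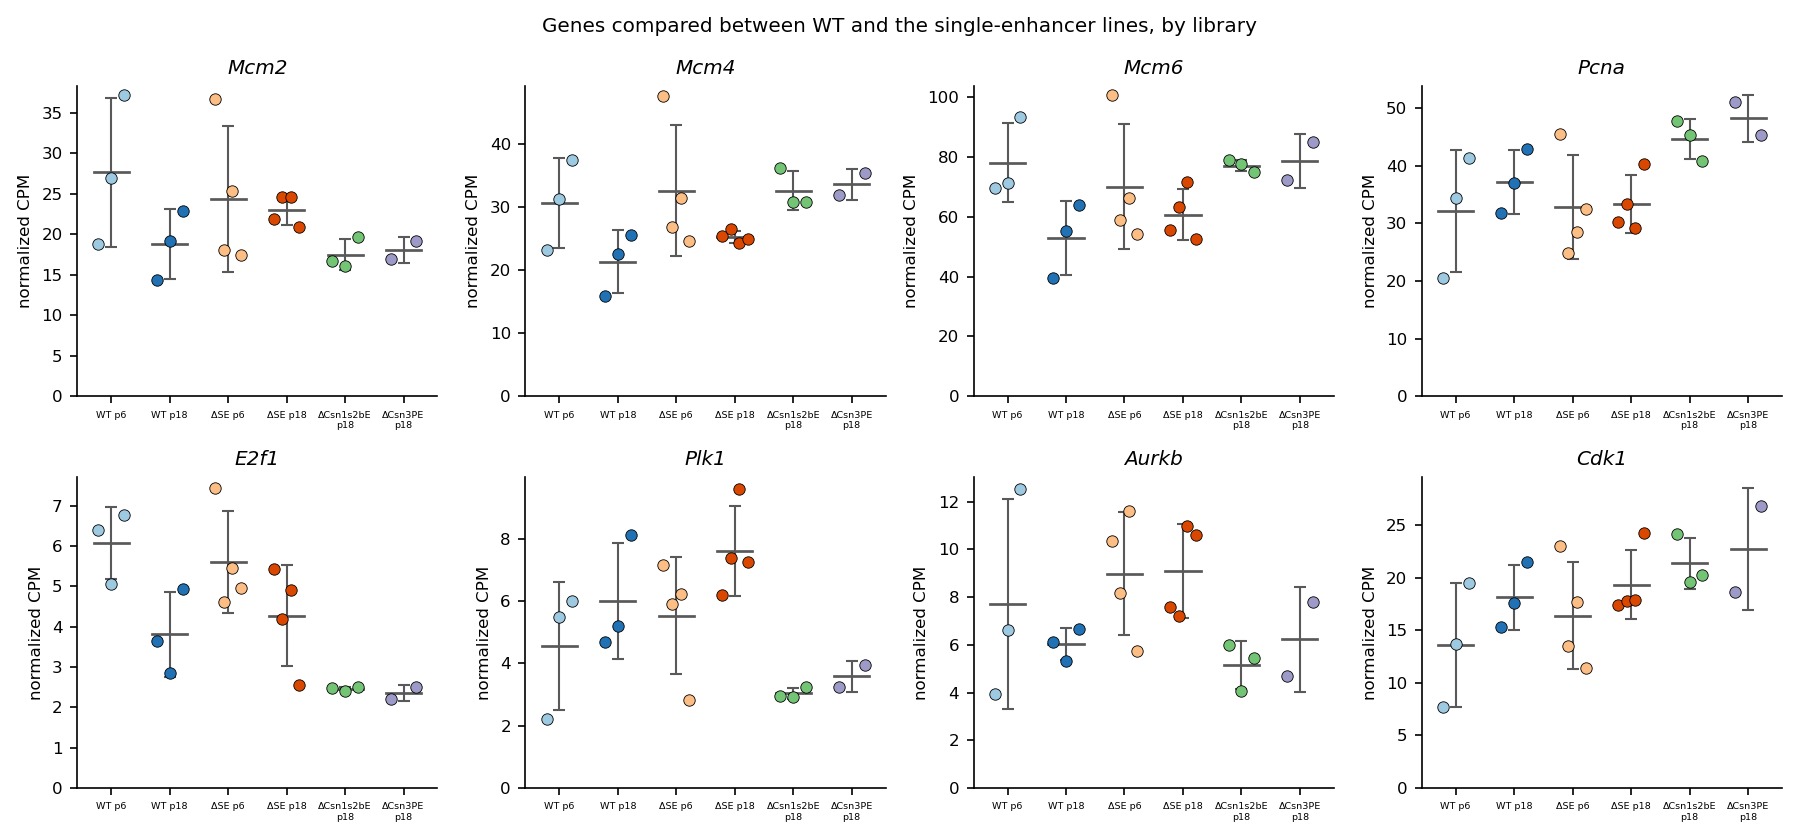
Normalized CPM of Mcm2, Mcm4, Mcm6, Pcna, E2f1, Plk1, Aurkb and Cdk1 in each library of the 6 groups. Points are libraries in the order of their replicate numbers, lines are group means and bars the standard deviation. Plk1 and E2f1 lie lower in the 5 libraries of the single-enhancer lines than in the 3 of WT tissue at p18, and Mcm4 and Mcm6 lie higher.

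In the other pathway lists, Pold1 fell by 1.96 and 1.62 and Tk1, the thymidine kinase, by 1.21 and 0.96 in ΔCsn1s2bE and ΔCsn3PE tissue against WT tissue (adjusted p from 0.00107 to 0.0205 in edgeR's quasi-likelihood test). Tipin, which protects stalled forks, rose by 0.68 and 0.56 (adjusted p of 0.00389 and 0.0194). Of 28 other replication genes 4 and 3 were higher and 2 and 2 lower, and of 44 other mitosis genes 0 and 1 higher and 3 and 2 lower, Cenpm, a centromere protein, in both lines (-1.36 and -1.24, adjusted p of 0.00967 and 0.0307). The D cyclin Ccnd3 was lower in both (-0.98 and -0.75, adjusted p of 0.00236 and 0.0185) and the antiproliferative gene Btg1 higher (0.75 and 1.06, adjusted p of 0.00496 and 0.00289).

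Between the 2 single-enhancer lines, which share a library set, none of the 40 genes was called, beside 0.0117% of all genes higher and 0.169% lower in ΔCsn1s2bE tissue. None had an unadjusted p under 0.05, and DESeq2 called none, beside 0.146% of all genes higher and 0.415% lower. The log2 fold changes ran from -0.43 (Ccnb2, SE 0.29) to 0.52 (Ccnd1, SE 0.33). Ccnb2 was at 11.8, 8.84 and 9.17 normalized CPM in ΔCsn1s2bE and at 10.6 and 16.0 in ΔCsn3PE tissue, where replicate 2 was higher than replicate 1 for all 22 mitosis genes.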

How the data were processed

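Total RNA-seq libraries of mouse mammary tissue (19 in 6 groups) were analysed from counts. The deposited values are raw read counts per gene symbol, not normalized. The authors trimmed paired-end reads with Trimmomatic, aligned them to mm10 with STAR and counted them with HTSeq. The libraries are stranded, and the strand setting of the counting is not given in the sources used here. Entries that name no gene, found only in the files of the single-enhancer lines, were left out of library sizes. These 5 entries hold, among others, reads in no gene (13.2 to 20.9% of a file's reads), ambiguous reads (0.672 to 0.821%) and reads aligned to several places (8.57 to 9.62%).

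Genes with at least 10 reads in total entered edgeR's quasi-likelihood test (edgeR 4.0.16 under R 4.3.3, TMM factors). One fit held the 14 WT and ΔSE libraries in 4 groups (17844 genes) and another the 3 groups with label p18 other than ΔSE (8 libraries, 17125 genes). Called means a Benjamini-Hochberg adjusted p under 0.05 over all genes tested. Counts of members at an unadjusted p under 0.05 are given without the share of all genes and are not read as results. The labels do not say that replicates came from separate animals, so p-values measure the spread between these samples, which may be technical. No 2 libraries of a group agreed within sampling noise. Alternatives were DESeq2 (version 1.42.0), RLE factors, library totals with and without Rn45s, no filter and filterByExpr, 1 factor of unwanted variation, luminal or lymphocyte markers as a covariate, a fit of just the groups at issue, a block for the replicate number, and leaving out each library in turn. The members and all gene lists were chosen with earlier results of these data known. Named are all members, with values per library for a fixed set of 16, for those called between genotypes and for the largest and smallest in each comparison. Of other lists at most 4 genes by smallest p are named, and Fen1 in WT tissue was added after its value was seen. Geometric means used log2 of normalized CPM plus 0.5. The tests were tried on simulated data. Gene positions are those of GENCODE M21 (GRCm38) and promoters those of RefSeq (GRCm38.p6).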

Additional observations from a re-analysis of the deposited data

Results flagged for a closer look

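In groups of 4 libraries, 80 combinations of gene and group were examined for 1 library far from the other 3, a gap that chance alone gives in about 1 group of 20. It was found 4 times, no more often than chance alone would give over 80 combinations. Members of a class rise and fall together between libraries, so these combinations are not independent. Cdk1 was at 24.3 normalized CPM in ΔSE replicate 4 at p18, against 17.5 to 17.9 in the other 3 libraries. Cdc20 was at 21.8 in ΔSE replicate 3 at p18, against 15.2 to 15.7. Aurka, a kinase of the spindle poles, was at 5.89 in ΔSE replicate 4 at p6, against 9.09 to 9.58, and Kif23, a motor of the central spindle, was at 9.85 there, against 17.1 to 18.4.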

How the results depend on the processing

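Counts of called members are given as all calls. From p6 to p18 in WT tissue they were 4 and moved to 10 with library totals, 11 with totals without Rn45s, 10 with luminal markers as a covariate and 0 with 1 factor of unwanted variation. The S phase median moved under these settings to -0.90, -0.93, -0.96 and -1.20. In ΔSE tissue the 2 calls became 4 with DESeq2, 12 with totals, 10 with totals without Rn45s, 5 with the luminal covariate, 0 with the factor of unwanted variation and 5 with only the groups compared. With only the groups compared, 20% of all genes were higher and 21.4% lower, and with DESeq2 17.7% and 19.7%. The S phase median there moved to -0.76 with totals, -0.56 without Rn45s, -1.08 with the luminal covariate and -0.95 with the factor, and the mitosis median to -0.13, 0.055 and -0.57 in the first 3. With the luminal covariate Ccnb2 turned to -0.12 (adjusted p = 0.920 by edgeR's quasi-likelihood test). ΔSE against WT tissue at p18 gave 3 calls with only the groups compared and 0 otherwise, and at p6 and for the interaction the count was 0 under every alternative. Few genes of any kind were called in these fits. At p6 the shares of all genes ran from 0% in each direction (only the groups compared) to 5.42% higher and 4.55% lower (without WT replicate 2 at p6). For the interaction they ran from 0% (library totals) to 2.68% and 3.16% (without that same library). The interaction medians moved to -0.14 (S phase) and -0.40 (mitosis) with the luminal covariate. ΔCsn1s2bE against WT tissue gave 4 calls, and 1 with totals without Rn45s, with S phase medians of 0.35 (totals), 0.16 (factor of unwanted variation) and 0.32 (luminal covariate) and a mitosis median of 0.41 (totals). Its 2 higher and 2 lower calls became 4 and 0 with the luminal covariate (11.3% and 10.6% of all genes). With the factor they became 4 and 1 (16.9% and 14.6%). ΔCsn3PE against WT tissue gave 2 calls, 4 with totals, 0 without Rn45s and 0 with only the groups compared, with medians of 0.56 and 0.62 with totals. The fit of only those groups still called 11.1% of all genes higher and 11.1% lower. Between the single-enhancer lines 1 member was called higher with the luminal covariate (0.502% of all genes higher and 0.239% lower), where the S phase median was 0.24. The cause of these shifts was not tested. The luminal sum follows stage, so that covariate and stage cannot be told apart. The factor of unwanted variation removed nearly all calls between the days over all genes, so its counts there cannot decide on the members.

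Without 1 library at a time, calls ranged from 2 to 6 in WT tissue (13.5 to 16.5% of all genes higher and 8.28 to 13% lower). In ΔSE tissue they ranged from 1 to 3 (14.3 to 17.8% and 14.9 to 16.9%). Against WT tissue they ranged from 1 to 4 for ΔCsn1s2bE (11.3 to 15.1% and 10.8 to 13.6%). For ΔCsn3PE they ranged from 1 to 2 when a WT library was left out (8.56 to 9.57% and 9.02 to 9.99%). Fits that kept a lone library in a group are not counted here, and elsewhere calls were 0. Of all genes, 0.0112 to 0.174% were higher and 0.0112 to 0.411% lower in those fits of ΔSE against WT tissue at p18. At p6 the shares were 0.0169 to 5.42% and 0.0282 to 4.55%, and for the interaction 0 to 2.68% and 0 to 3.16%. Between the single-enhancer lines they were 0.00588 to 0.0118% and 0.106 to 0.148%. The S phase and mitosis medians ranged from -0.62 to -0.28 and -0.05 to 0.54 in WT tissue, -0.27 to 0.01 and 0.25 to 0.57 in ΔSE tissue, 0.11 to 0.41 and 0.25 to 0.66 between genotypes at p18, -0.28 to 0.09 and -0.02 to 0.55 at p6, and 0.17 to 0.52 and -0.14 to 0.42 for the interaction. They ranged from -0.20 to 0.15 and -0.21 to 0.16 for ΔCsn1s2bE, -0.10 to 0.23 and -0.23 to 0.44 for ΔCsn3PE, and -0.13 to 0.16 and -0.43 to 0.23 between these lines. Where a lone library remained in a group, it was assumed to vary like the others.

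Groups share replicate numbers, but same-numbered libraries correlated at 0.219, 0.0909 and 0.107 between the days in WT tissue and at 0.00265, -0.0808, 0.195 and 0.0363 in ΔSE tissue, and not every library matched its own number best. With the number as a replicate block, 3 members were called in WT tissue, 4 in ΔSE tissue, 2 for ΔCsn1s2bE, 0 for ΔCsn3PE and 0 in the other comparisons. Of all genes, 16.5% were higher and 11.3% lower in WT tissue, and 16.2% and 17.3% in ΔSE tissue. For ΔCsn1s2bE the shares were 12.8% and 11.9%, and for ΔCsn3PE 5.17% and 6.29%. In the other comparisons they were at most 0.0897% and 0.202%.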
